A study of Homo sapiens with 18 samples.

Results

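The 3' UTR m6A peaks described here are the rows of 2 tables deposited by the authors, one for each nanomaterial, whose annotation begins with 3' UTR. They number 12815 of 27794 rows: 6772 of 14903 rows (45.4%) in the table for BPQD, naming 5144 genes, and 6043 of 12891 rows (46.9%) in the table for TiO2, naming 4761 genes. The cells are labelled A549, a human lung adenocarcinoma line. They were left untreated, or were given BPQD at 10 mg/L or TiO2 at 100 mg/L for 24 h, and each of the 3 groups has 3 input libraries of total RNA and 3 libraries from an m6A immunoprecipitation (18 libraries). The labels do not say whether libraries of a group came from separate cultures, and tests of input RNA measure only the spread between these libraries, which may be technical. The doses of the materials differ, so their values are set side by side and not compared.

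N6-methyladenosine (m6A) is a methyl mark on adenosines inside RNA. A writer complex around METTL3 and METTL14 places it as RNA is made, FTO and ALKBH5 can remove it, and reader proteins of the YTH, IGF2BP and hnRNP families bind marked RNA and affect its splicing, export, translation and decay. In mRNA the mark is known to gather around the stop codon and in the 3' UTR, the untranslated stretch that also holds binding sites for miRNAs and RNA-binding proteins. In m6A immunoprecipitation sequencing, fragmented RNA is pulled down with an antibody to the mark, and a peak is a stretch with more pulled-down than input reads.

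Each row of the authors' deposited tables holds the peak's position, a gene, 1 log2 fold change of m6A for treated against untreated cells, and a p-value. The tables also repeat input FPKM of the gene per library, but give no m6A value per library, so the folds carry no error here and what spread the p-values measure is unknown. A peak is called higher or lower where the authors' p is under 0.05. Gene coordinates of the expression table matched RefSeq on GRCh38, with 99.9% of 27180 matched genes on the same chromosome and 87.3% starting within 1000 bases of the RefSeq start. Positions below are therefore read as GRCh38.

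The letters of some peaks can be seen through miRNA genes that lie inside them. A miRNA gene is named by 7 of the 3' UTR rows for BPQD and by 11 for TiO2. The miRNAs below have hairpins that lie wholly inside a peak of at most 3000 bases, overlapping a longer gene, and are shown because their rows give the gene column's choice and the sequence under the peak at the same time. Mature sequences are from RefSeq (GRCh38.p14), written 5′ to 3′, with the seed (bases 2 to 8), the part that pairs with targets, in capitals.
hsa-miR-3658: uUUAAGAAaacaccauggagau
hsa-miR-7106-5p: uGGGAGGAggggaucuuggg
hsa-miR-7106-3p: aGCUCCCUgaaucccugucccag
hsa-miR-4800-3p: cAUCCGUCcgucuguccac
hsa-miR-922: gCAGCAGAgaauaggacuacguc
hsa-miR-5006-5p: uUGCCAGGgcaggagguggaa
hsa-miR-6821-3p: uGACCUCUccgcuccgcacag
No seed was shared among them. The sequence of miR-3658 lies under a peak at chr1:165907842-165908291 in UCK2, a uridine-cytidine kinase gene. In the authors' deposited tables that peak had a log2 fold change of 0.29 with BPQD (p = 1.7e-07) and -0.11 with TiO2 (p = 0.0214). The same stretch was thus called in opposite directions at p under 0.05. The TiO2 fold is small, and a TiO2 peak at that p does not pass the authors' FDR under 0.05. The sequences of miR-7106 lie under a peak at chr12:113157671-113159217 that overlaps DDX54, a DEAD-box RNA helicase gene, with -0.11 for BPQD (p = 0.00257) and -0.13 for TiO2 (p = 0.000525) in the authors' deposited tables. The peak over miR-4800 in MXD4, a MYC-antagonist family gene, was called lower in the authors' deposited table for BPQD (-0.21, p = 0.000295). In the authors' deposited table for TiO2 the peaks over miR-922 in RUBCN, an autophagy regulator (0.33, p = 0.000275), and over miR-5006 in VWA8 (0.44, p = 0.00324) were called higher, and that over miR-6821 in PIM3, a kinase gene (-0.22, p = 7.24e-05), was called lower.

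These rows also show that the gene column can name a gene other than the mRNA under the peak. All 6711 rows of the BPQD table and all 5964 of the TiO2 table whose gene has an expression value overlap that gene. Of these rows 31.8% in each table also overlap a further gene, counted on either strand and with its introns included. That further gene had at least 10 times the input level in 333 rows (4.96%) for BPQD and 305 rows (5.11%) for TiO2. The row named AC068134, at 1.14 FPKM, overlaps ALPP, a placental-type alkaline phosphatase gene at 253 FPKM. The row named FAM166A, at 0.0775 FPKM, overlaps TUBB4B, a beta-tubulin gene at 397 FPKM. The widest 3' UTR peak was filed under different genes: the BPQD table lists chr20:53255979-53487274 under TSHZ2 and the TiO2 table lists chr20:53255999-53487561 under the pseudogene PPIAP10, in the authors' deposited tables. Protein-coding genes made up 93.4% of the 3' UTR rows for BPQD and 92.6% for TiO2.

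The total of all FPKM values ran from 212891 to 222818 over the 9 input libraries, and read depth is unknown. Markers known for A549 were mixed. The epithelial keratin genes KRT18, KRT8 and KRT7 had means of 581, 324 and 297 FPKM in untreated cells, and NQO1, an NRF2 target high in that line, 56.4 FPKM. Others went against the label: AKR1B10 and ALDH1A1, high in that line, reached at most 0.998 and 0.116 FPKM in any library, and CDKN2A, which A549 has lost, had a mean of 24.2 ± 2.77 FPKM (SD, n = 3) in untreated cells. AKR1C1 and AKR1C2, also listed beforehand as A549 markers, reached at most 1.14 and 0.139 FPKM. The epithelial genes EPCAM and CDH1 were low as well, at most 3.09 and 0.409 FPKM, unlike the keratins. The cells are therefore called by their treatment.

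With BPQD, 3' UTR peaks were called higher more often than lower. Of the 6772 peaks 4829 (71.3%) were called by the authors' deposited table, beside 64.8% of all rows of the table. Of the 3' UTR peaks 2930 (43.3%) were called higher, beside 37.7% of all rows, and 1899 (28.0%) were called lower, beside 27.1%. Most folds were small: the median log2 fold change was 0.15 (quartiles -0.24 and 0.43) beside 0.16 over all rows, with 0.33 as the median of the peaks called higher and -0.28 of those called lower. A log2 change of at least 1 among called peaks was reached by 349 peaks upward and 104 downward. Peaks at the 5' UTR of the same table leaned the other way, with 30.0% of 3734 called higher and 35.8% lower and a median of -0.17. The lean to higher calls was not particular to the 3' UTR. Of 4397 exon peaks 35.6% were called higher and 18.4% lower, with a median of 0.42.

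The 8 higher peaks with the smallest p lay in genes of differing function. The peak of FBXO22, a substrate receptor of an SCF ubiquitin ligase, at chr15:75937514-75941284, had a log2 fold change of 1.26 (p = 7.94e-89) in the authors' deposited table. CAV1, the main coat protein of caveolae, had 0.74 (p = 1.58e-78) at chr7:116560465-116560824 by the authors' deposited table. FANCC, a member of the Fanconi anaemia core complex, had the highest fold of these 8 in the authors' deposited table, 1.92 (p = 2.51e-77). TWIST2, a basic helix-loop-helix transcription factor, had 1.16 in the authors' deposited table, over a peak of 61406 bases. CEP170, a centrosomal protein (0.64), CD24, a surface glycoprotein (0.33), and HSPA8 (0.17) were also among them in the authors' deposited table.

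The 8 lower peaks with the smallest p included those of 3 ribosomal protein mRNAs. RPL19, a protein of the large ribosomal subunit at 806 FPKM, had a log2 fold change of -0.41 (p = 1e-184) at chr17:39204186-39204732 in the authors' deposited table. The ribosomal proteins RPL26 and RPL13A had -0.20 (p = 1e-102) and -0.18 (p = 3.16e-92) there, and PTMA, encoding prothymosin alpha, had -0.19 (p = 1.26e-74) by the authors' deposited table. HNRNPA2B1, itself an m6A reader, had -0.19 (p = 1e-158) over 4328 bases in the authors' deposited table. GNAS, the stimulatory G protein alpha subunit, had -0.48 (p = 1e-114) and NUCKS1, a nuclear DNA-binding protein, -0.34 (p = 1e-91) in the authors' deposited table. With AC068134 at -0.23, these 8 folds in the authors' deposited table all lay between -0.18 and -0.48, so the small p-values belong to small changes.

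With TiO2, 3' UTR peaks were also called higher more often than lower. Of the 6043 peaks 4290 (71.0%) were called by the authors' deposited table, beside 64.1% of all rows. Of them 2598 (43.0%) were called higher, beside 40.3% of all rows, and 1692 (28.0%) lower, beside 23.8%. The median log2 fold change was 0.13 (quartiles -0.25 and 0.33) beside 0.15 over all rows, and 133 called peaks reached a log2 change of 1 upward and 87 downward. Peaks at the 5' UTR of the TiO2 table were called higher in 43.9% and lower in 22.9% of 3406 rows, with a median of 0.17. Exon peaks were called higher in 31.9% and lower in 17.2% of 3442 rows, with a median of 0.19.

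The 8 higher TiO2 peaks with the smallest p included those that follow. DBF4, the activating subunit of the CDC7 replication kinase, had 0.55 (p = 5.01e-55) and NKAPD1 had 0.66 (p = 3.16e-48) by the authors' deposited table. DDX23, a spliceosomal helicase (0.36), RBBP6, a RING ubiquitin ligase tied to mRNA 3' end processing (0.35), ARHGAP11A (0.37), CTSZ, a lysosomal cathepsin (0.22), and HSPA8, the constitutive HSP70 chaperone (0.15), followed in the authors' deposited table.

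The lower TiO2 peaks again held ribosomal proteins. RPL19 had -0.41 (p = 1e-197), RPL26 -0.24 (p = 1e-161), RPL13A -0.26 (p = 1.26e-46) and RPL4 -0.20 (p = 1e-44) in the authors' deposited table. RACK1, a scaffold protein of the small ribosomal subunit, had -0.34 (p = 3.98e-82) by the authors' deposited table. The 3' UTR peak with the lowest fold of both tables, BOLA2B at chr16:30192934-30193082 (-7.99), has a p listed at 0 in the authors' deposited table. BOLA2B has a near-identical copy, BOLA2, so reads may have been split between them, and its value is uncertain.

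Some of the peaks with the smallest p were called in both tables. The tables share their untreated libraries, so the folds are given side by side only. At identical coordinates RPL19 had -0.41 in both, GNAS -0.48 with BPQD and -0.45 with TiO2, and RPL4 -0.22 and -0.20, in the authors' deposited tables. KRT8, a type II keratin of epithelial cells, had -0.27 with BPQD and -0.22 with TiO2 in the authors' deposited tables. Upward, DBF4 had 0.48 and 0.55, RBBP6 0.29 and 0.35, and HSPA8 0.17 and 0.15 in the authors' deposited tables. By position, 3452 of the BPQD peaks (51.0%) overlapped a 3' UTR peak of the TiO2 table and 3466 of the TiO2 peaks (57.4%) overlapped one of the BPQD table, 1210 of them with identical coordinates. As genes, 3169 were named in both, 61.6% of those for BPQD and 66.6% of those for TiO2.

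**Figure D1:**
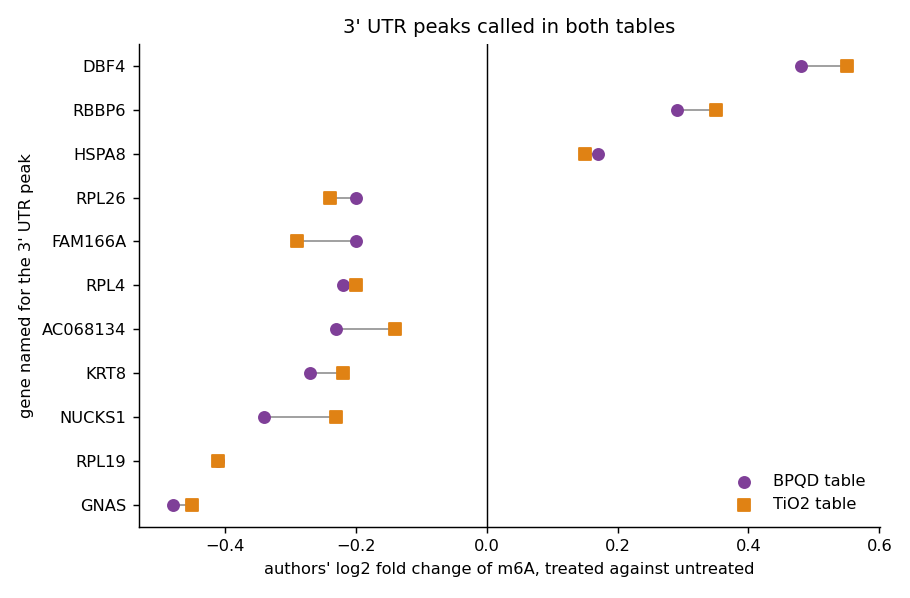
The x axis gives the authors' log2 fold change of m6A, treated against untreated, for 11 of the 3' UTR peaks called in both tables with the smallest p, 1 row a gene; circles stand for the BPQD table and squares for the TiO2 table. DBF4, RBBP6 and HSPA8 lie above 0 in both and the other 8 below 0, with GNAS lowest at -0.48 and -0.45.

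The width of a peak, counted in bases of genome with any introns it spans, went with its direction. Widths ran from 58 to 231296 bases with a median of 647 (quartiles 271 and 1796) for BPQD, and from 59 to 231563 with a median of 746 (quartiles 299 and 2190) for TiO2. With BPQD the peaks called higher had a median width of 1049, those called lower 588 and those not called 301. With TiO2 these medians were 1599, 451 and 328. Under 250 bases 19.7% of the BPQD peaks were called higher and 26.0% lower, and from 1000 to under 3000 bases 57.6% and 26.9%. In the TiO2 table the shares were 10.3% higher and 33.1% lower under 250 bases, against 68.4% and 16.8% at 3000 bases and over. The narrowest peaks were thus called lower more often than higher in both tables, and wide peaks the reverse. Among the 3 widest and 3 narrowest BPQD peaks were TRPS1, a GATA-type transcription factor, with a 190178-base peak and a fold of 0.20, and ELOB, an elongin subunit, with a 58-base peak at -0.50, in the authors' deposited table. The pattern was not particular to the 3' UTR: peaks at the 5' UTR went from 5.09% higher under 250 bases to 45.6% at 3000 and over for BPQD, and from 8.96% to 60.4% for TiO2.

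**Figure D2:**
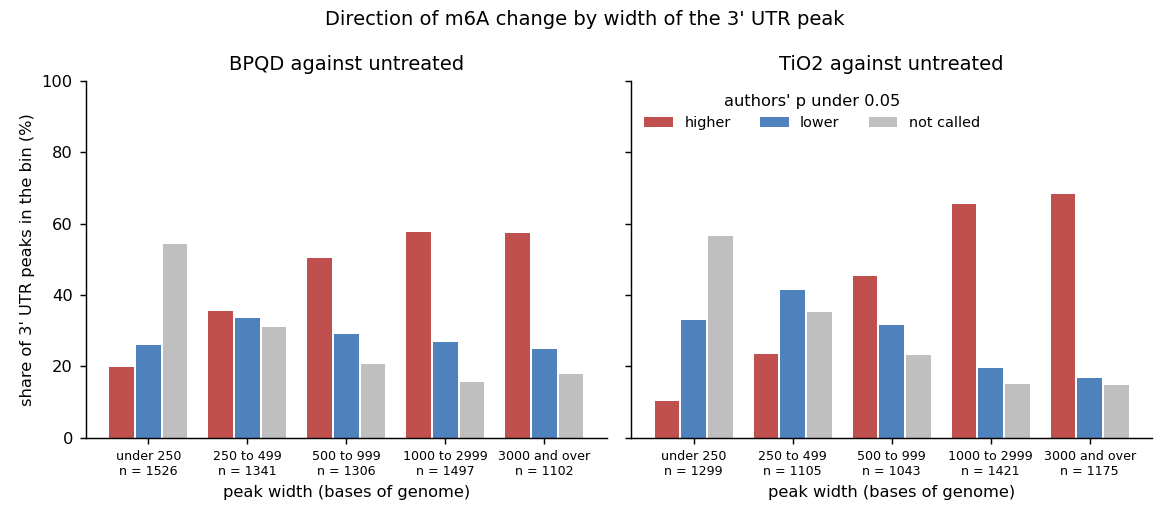
Bars give the share of 3' UTR peaks (y axis, percent) called higher, called lower or not called at the authors' p under 0.05 in 5 bins of peak width (x axis, bases), BPQD at left and TiO2 at right, with the number of peaks in each bin. The share called higher goes from 19.7% to 57.5% for BPQD and from 10.3% to 68.4% for TiO2 between the narrowest and the widest bin.

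The level of the gene in input RNA went with direction as well. The named genes had a median of 4.13 FPKM over the 9 input libraries (quartiles 1.35 and 10.5) for BPQD and 4.07 (1.40 and 10.5) for TiO2. At 1 to 5 FPKM 48.1% of BPQD peaks were called higher and 22.6% lower. At 50 FPKM and over, where RPL19, HSPA8 and KRT8 sit, 27.0% of 244 peaks were called higher and 60.2% lower. The TiO2 table gave 49.6% and 20.3% at 1 to 5 FPKM, and 23.6% and 62.3% of 199 peaks at 50 and over. Peaks of genes under 1 FPKM were most often not called, 49.7% with BPQD and 47.2% with TiO2. The pattern by level was not particular to the 3' UTR either. Peaks at the 5' UTR were called lower in 20.2% under 1 FPKM and 76.4% at 50 and over for BPQD, and in 15.9% and 58.6% for TiO2. Most of both patterns was also seen with the other measure held in a range. Among peaks of at least 500 bases the share called lower was 22% under 5 FPKM and 52.5% at 20 and over for BPQD, and 16.7% and 44.4% for TiO2. Among genes at 20 FPKM and over, the share called higher was 11.5% under 500 bases and 49.0% at 500 and over for TiO2, and 23.4% and 41.3% for BPQD. The share called lower at that level fell from 66.0% to 44.4% with width for TiO2 but was 55.1% and 52.5% for BPQD, where wide peaks of abundant genes were still called lower more often than higher. Narrow BPQD peaks of genes under 5 FPKM were called higher in 25.3% and lower in 18.2%, unlike narrow BPQD peaks of abundant genes. Power to call a peak also moves with the level of its gene and the width of the peak, and its part in these shares was not tested.

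**Figure D3:**
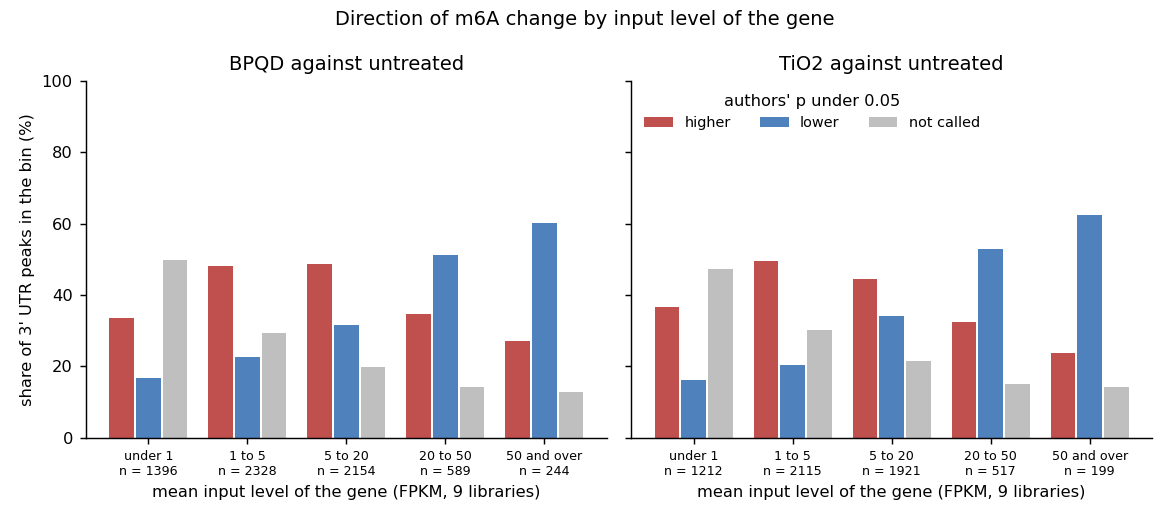
Bars give the share of 3' UTR peaks (y axis, percent) called higher, called lower or not called at the authors' p under 0.05 in 5 bins of the gene's mean input level (x axis, FPKM), BPQD at left and TiO2 at right, with the number of peaks in each bin. The share called lower goes from 16.8% to 60.2% for BPQD and from 16.1% to 62.3% for TiO2 between the lowest and the highest bin.

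Position in the gene went with direction too. Of the protein-coding rows of at most 3000 bases, 23.2% for BPQD and 26.2% for TiO2 ended within 99 bases of the gene's annotated 3' end, and the median distance was 1350 and 1196 bases. Peaks within 99 bases of the end were called higher in 31.6% and lower in 39.5% for BPQD, and in 27.2% and 44.3% for TiO2. Those 5000 bases or more before the end were called higher in 45.7% and lower in 18.6% for BPQD, and in 43.9% and 20.4% for TiO2. Genes at the end position were also more abundant, with medians of 6.44 against 3.19 FPKM for BPQD and 6.55 against 3.17 for TiO2, and the part of level in this was not tested.

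Most genes had a single 3' UTR peak: 3938 of 5144 (76.6%) for BPQD and 3738 of 4761 (78.5%) for TiO2. Rows of 1 gene are not independent, and 943 BPQD rows (13.9%) and 908 TiO2 rows (15.0%) overlap another 3' UTR row of their table. Direction was compared within genes that had at least 2 called peaks overlapping no other 3' UTR row of their table. Of 450 such genes for BPQD 218 had all of these peaks higher, 83 all lower and 149 (33.1%) had both. For TiO2 the 332 genes divided into 144, 60 and 128 (38.6%). Over all called 3' UTR peaks 60.7% were higher for BPQD and 60.6% for TiO2. Peaks of 1 gene also share its input level, and agreement beyond these shares was not tested. In CSNK1D, a casein kinase gene, every called peak was higher in the authors' deposited table for BPQD. A peak overlapping no other CSNK1D row, at chr17:82248566-82249374, had 1.04 (p = 1.26e-32) in the authors' deposited table for BPQD. Another such peak, at chr17:82255246-82265447, had 0.20 (p = 0.0331) in the authors' deposited table for BPQD. The peak at chr17:82249786-82250804, with 1.46 (p = 2e-18) in the authors' deposited table for BPQD, overlaps other CSNK1D rows and was not compared. These rows also overlap SLC16A3 (13.3 FPKM against 8.35 for CSNK1D). AKAP8L, an A-kinase anchoring protein gene, is outside this count, since each of its BPQD rows overlaps another. It had lower peaks, -0.47 (p = 0.00245) at chr19:15380031-15380270 and -0.31 (p = 0.000389) at chr19:15399052-15399556, in the authors' deposited table for BPQD. PPIL2, a cyclophilin-type protein gene, is outside the count as well, since most of its rows overlap another. It had both directions in the authors' deposited table for BPQD: 0.22 (p = 1.82e-06) at chr22:21696361-21698008 and -1.85 (p = 0.0132) at chr22:21698427-21698757. With TiO2 the peaks of HNRNPU, a nuclear matrix hnRNP, were called lower at 3 places in the authors' deposited table, from -0.15 to -0.26.

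The genes of the m6A machinery carry 3' UTR peaks of their own. With BPQD 10 peaks lay in 8 writer genes, and 8 were called higher (in 7 genes) and 1 lower. Their median log2 fold change was 0.26, beside 43.3% higher, 28.0% lower and a median of 0.15 over all 3' UTR peaks. RBM15 and RBM15B, which bring the writer complex to RNA, had 0.71 (p = 3.31e-07) and 0.65 (p = 0.0012) in the authors' deposited table. METTL16, a separate methyltransferase, had 0.42 in each of a pair of overlapping rows, VIRMA, the scaffold of the complex, 0.28, and ZC3H13, its nuclear anchor, 0.24 in the authors' deposited table. WTAP, the adaptor of the complex, had 0.12 (p = 0.01) and TRMT112, the partner of several methyltransferases, -0.15 (p = 0.00282) by the authors' deposited table. An overlapping TRMT112 row was not called. The demethylase gene FTO had 0.59 without a call (p = 0.357) in the authors' deposited table. With TiO2, 4 of 7 writer peaks were called higher and 3 lower, with RBM15 at 0.57 (p = 0.0002), METTL16 at 0.32 (p = 2.51e-14), CBLL1 at -0.10 (p = 0.011) and TRMT112 at -0.22 (p = 7.08e-06) in the authors' deposited table. CBLL1, a RING protein of the writer complex, had 0.13 (p = 0.00123) in the authors' deposited table for BPQD.

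Reader genes were divided. With BPQD 4 of 13 reader peaks were called higher and 6 lower, and with TiO2 3 of 8 and 4 of 8. Over all 3' UTR peaks the shares were 43.3% and 28.0% for BPQD and 43.0% and 28.0% for TiO2. YTHDC2, a YTH reader with a helicase domain, had the highest fold, 0.66 (p = 0.000245) with BPQD and 0.67 (p = 0.000224) with TiO2, in the authors' deposited tables. YTHDF3 (0.32 and 0.26) was called higher in both of the authors' deposited tables, and IGF2BP2 (0.28) and FXR1 (0.23) in that for BPQD. FXR2, an FMR1 relative, was called lower with -0.50 and -0.37, HNRNPC with -0.16 and -0.07, and IGF2BP3 with -0.13 in both, in the authors' deposited tables for BPQD and TiO2.

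Lists of genes of other pathways ranged around the background. Each list is read against the share of all 3' UTR peaks, 43.3% higher and 28.0% lower for BPQD and 43.0% and 28.0% for TiO2. Genes of growth factor signalling were called higher in 19 of 32 peaks and lower in 5 for BPQD, and in 16 and 3 of 25 for TiO2. Among them the receptor genes IGF1R (0.37, p = 3.16e-27), EGFR (0.34, p = 2.51e-13) and MET (0.23, p = 1e-12) had higher peaks in the authors' deposited table for BPQD, and NOTCH2 (0.23, p = 6.31e-23) in that for TiO2. Genes of TGF-beta signalling and the epithelial-mesenchymal programme were called higher in 10 of 12 peaks and lower in none for TiO2, with a median of 0.20, and higher in 6 and lower in 2 of 12 for BPQD. ITGA5, the fibronectin receptor subunit, had 0.17 (p = 2.51e-28), and the matricellular genes CCN1 and CCN2 had 0.20 (p = 6.31e-15) and 0.68 (p = 3.55e-06) in the authors' deposited table for TiO2. SMAD2, a signal transducer of TGF-beta, had 2.08 (p = 1e-20) in the authors' deposited table for BPQD.

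Lysosome and autophagy genes leaned lower: 10 of 15 peaks were called lower and 4 higher for BPQD, with a median of -0.15, and 9 and 3 of 17 for TiO2, with -0.12. The cathepsin gene CTSB had -0.13 (p = 2e-11) with BPQD and -0.12 (p = 3.98e-12) with TiO2 in the authors' deposited tables. ATG14, which starts autophagosome formation, had 1.60 (p = 1.55e-10) in the authors' deposited table for BPQD. Sterol synthesis genes were called lower in 9 and higher in 2 of 13 peaks for TiO2, and lower in 7 and higher in 5 of 13 for BPQD. EBP, a sterol isomerase gene, had -0.20 (p = 1.15e-08) in the authors' deposited table for TiO2, and MSMO1, a methylsterol oxidase gene, had 0.61 (p = 2.57e-05) in that for BPQD. Cell cycle genes were called lower in 8 and higher in 3 of 12 peaks for TiO2, with CCND1, the G1 cyclin, at -0.32 (p = 2.09e-05) in the authors' deposited table, and lower in 5 and higher in 4 of 12 for BPQD.

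Inflammation and interferon genes were called higher in 8 and lower in 1 of 10 peaks for TiO2, and in 6 and 3 of 13 for BPQD, with TRAF6, an adaptor ubiquitin ligase, at 1.40 (p = 1.95e-06) in the authors' deposited table for BPQD. Genes of p53 signalling and apoptosis were called higher in 8 and lower in 2 of 12 peaks for TiO2, and in 7 and 5 of 15 for BPQD. MDM2 and MDM4, the inhibitors of p53, were called higher in both of the authors' deposited tables, MDM2 with 0.23 and 0.34, in a peak that also overlaps CPM (9.42 FPKM against 5.40 for MDM2), and MDM4 with 0.40 and 0.45. DNA repair genes were called higher in 10 and lower in 3 of 18 peaks for BPQD, and in 6 and 6 of 14 for TiO2. The mismatch repair gene MSH6 had 0.45 (p = 3.98e-15) with BPQD and 0.59 (p = 7.94e-27) with TiO2, and XRCC5, the Ku80 gene of end joining, -0.36 and -0.20, in the authors' deposited tables.

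Chromatin regulators were evenly divided for TiO2, 19 higher and 19 lower of 40 peaks, and 20 and 16 of 48 for BPQD. Transcription factors were called higher in 16 and lower in 7 of 27 peaks for BPQD, and in 11 and 9 of 23 for TiO2, with the stress factor gene ATF4 at -0.28 (p = 3.98e-34) and -0.11 (p = 1e-06) in the authors' deposited tables. Genes of mRNA decay and 3' end formation were called higher in 14 and lower in 7 of 26 peaks for BPQD, and in 9 and 5 of 23 for TiO2. ZFP36L2, a decay factor that binds AU-rich 3' UTRs, had 0.20 in both of the authors' deposited tables. Ubiquitin ligases were called higher in 9 and lower in 4 of 15 peaks for BPQD, and in 6 and 5 of 15 for TiO2. Oxidative stress genes had 4 peaks in each table, with 2 called higher and 1 lower for BPQD and 2 and 0 for TiO2. In the authors' deposited table for BPQD these were NFE2L2, the NRF2 gene (0.17, p = 7.94e-11), GCLC (0.16, p = 0.0389) and OSGIN1 (-0.23, p = 0.0468).

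Zinc finger genes, those with a ZNF symbol and a group singled out after their values were seen, were the largest set. They held 278 peaks for BPQD, with 181 (65.1%) called higher, 23 (8.27%) lower and a median log2 fold change of 0.29. For TiO2 they held 271, with 183 (67.5%) called higher, 19 (7.01%) lower and a median of 0.30. Their peaks were wide, with medians of 1436 and 1581 bases, and their genes low, at 1.71 and 1.64 FPKM. Among peaks of at least 500 bases in genes at 1 to 5 FPKM, 83.3% of the ZNF peaks and 56.8% of the others were called higher for BPQD, and 87.8% and 63.0% for TiO2. Those on chromosome 19, where many ZNF genes lie in clusters, were called higher in 63.7% for BPQD and 74.2% for TiO2, and those elsewhere in 66.2% and 61.5%. Many of these genes are paralogs with similar sequence, and how the authors assigned shared reads is not given in the sources used here.

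Ribosomal protein genes, also chosen by symbol after the values were seen, had 9 peaks called higher and 10 lower of 23 for BPQD, with a median of -0.05, and 8 higher and 5 lower of 16 for TiO2, with 0.14. The lower calls of RPL19, RPL26, RPL13A and RPL4 therefore did not extend to the whole set. Ribosomal protein genes have many pseudogene copies that can share reads.

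**Figure D4:**
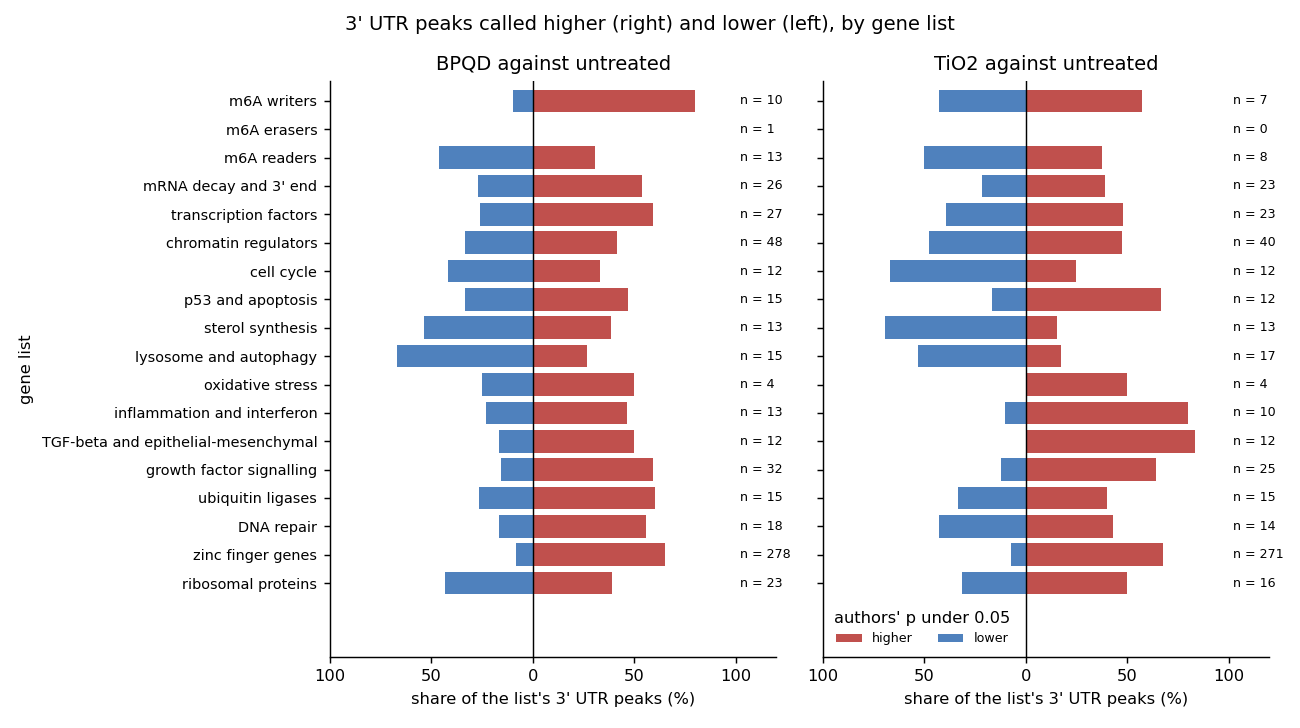
Bars give, for each gene list (y axis), the share of its 3' UTR peaks called higher (to the right) and lower (to the left) at the authors' p under 0.05 (x axis, percent), with n the number of peaks, BPQD at left and TiO2 at right. Zinc finger genes reach 65.1% and 67.5% higher, and sterol synthesis genes 69.2% lower for TiO2.

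Input RNA of the genes with a 3' UTR peak was tested with limma on log2(FPKM + 1), over the 12224 genes whose input level averaged 1 FPKM or more. In bulk RNA a shift in the makeup of a culture and a change of RNA per cell cannot be told apart. With BPQD 3990 of the 5144 genes passed that filter, and 1866 (46.8%) changed at an adjusted p under 0.05, beside 44.0% of all tested genes. Of the 3990, 847 (21.2%) were higher, beside 20.6% of all, and 1019 (25.5%) lower, beside 23.4%. That split turned with the scale: after rescaling to TPM 1071 were higher and 812 lower, so that higher genes made up 56.9% of those called, and 51.2% after centring on library medians, against 45.4% as deposited. With TiO2 3712 of 4761 genes passed, and 1482 (39.9%) changed, beside 37.7% of all, with 556 (15.0%) higher, beside 17.3%, and 926 (24.9%) lower, beside 20.5%.

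Input RNA was then set beside the direction of the peaks. With BPQD, of 1825 tested genes whose called 3' UTR peaks were all higher 23.3% rose and 19.2% fell in input, and of 1284 whose called peaks were all lower 20.4% rose and 34.2% fell. With TiO2 these shares were 15.5% and 21.0% of 1680 genes with higher peaks, and 15.8% and 29.2% of 1190 with lower peaks. The share that fell was larger among genes with lower peaks for both materials, a difference that was not tested. The fold of a peak and the input level rest on the same input libraries, and peaks called lower also lay in more abundant genes. Over all 3' UTR rows called lower and higher, the medians were 7.28 and 4.28 FPKM for BPQD and 8.0 and 3.80 for TiO2. The part of either was not tested.

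Single genes showed every combination. HNRNPA2B1 had a lower peak and more RNA with BPQD: its input values were 162, 158 and 164 FPKM in untreated cells and 219, 216 and 219 with BPQD, without overlap, a rise of 0.43 ± 0.04 (log2, SE, limma adjusted p = 1.07e-04). NUCKS1, also with a lower peak, had 113, 109 and 111 FPKM untreated, 132, 132 and 131 with BPQD and 118, 121 and 117 with TiO2. It rose by 0.24 ± 0.02 with BPQD (limma adjusted p = 8.25e-05) and 0.10 ± 0.02 with TiO2 (adjusted p = 0.00834), and the 3 groups did not overlap. In GNAS peak and RNA were both lower. Its input level was 54.0, 53.8 and 52.6 FPKM untreated, 46.5, 47.3 and 48.1 with BPQD and 45.6, 43.1 and 44.9 with TiO2, below every untreated library. The changes were -0.17 ± 0.03 (limma adjusted p = 0.00140) and -0.26 ± 0.03 (adjusted p = 2.63e-04). RPL26 fell likewise, by 0.13 with BPQD (limma adjusted p = 0.00197) and by 0.24 with TiO2 (adjusted p = 1.53e-04).

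TWIST2 had a higher peak and less RNA with BPQD, at 12.1, 12 and 11.1 FPKM untreated against 9.85, 8.89 and 9.64, a change of -0.28 ± 0.05 (limma adjusted p = 0.00264). FANCC had a higher peak and more RNA, at 2.13, 2.15 and 1.95 FPKM against 2.55, 2.69 and 2.85 with BPQD, a rise of 0.26 ± 0.04 (limma adjusted p = 0.00218). RPL19, whose peak had the smallest p of the lower ones for BPQD, had 813, 758 and 736 FPKM untreated and 829, 838 and 772 with BPQD, which overlap (0.08 ± 0.05, limma adjusted p = 0.238). CAV1 varied widely among untreated libraries, 70.0, 38.1 and 74.7 FPKM, and its change with BPQD did not pass (-0.48 ± 0.25, limma adjusted p = 0.151). That value rested on single libraries: it was -0.79 without control replicate 2, where it passed (limma adjusted p = 0.00466), and -0.31 without control replicate 3 (adjusted p = 0.375).

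**Figure D5:**
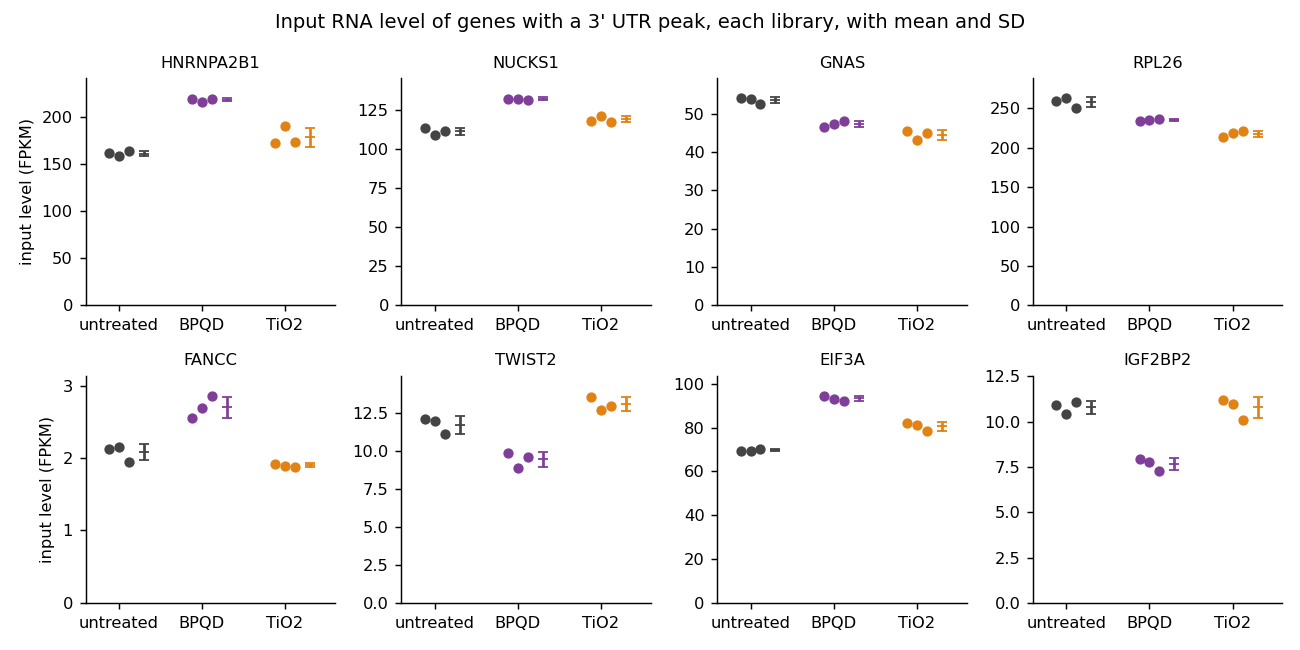
Points give the input level (y axis, FPKM, from 0) of 8 genes with a 3' UTR peak in each library, by group (x axis), with a dash and bar for mean and SD (n = 3). HNRNPA2B1, NUCKS1, FANCC and EIF3A lie higher in every BPQD library than in any untreated one, and GNAS, RPL26, TWIST2 and IGF2BP2 lower.

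Several m6A genes with a 3' UTR peak changed in input RNA. YTHDC1, the nuclear YTH reader, had 10.9, 9.41 and 8.98 FPKM untreated and 13.8, 15.9 and 16.3 with BPQD, a rise of 0.60 ± 0.08 (limma adjusted p = 6.18e-04), while its peak had -0.20 (p = 0.0302) in the authors' deposited table. EIF3A, a translation initiation factor that can bind m6A, had 69.5, 69.3 and 70.3 FPKM untreated, 94.5, 93.1 and 92.2 with BPQD and 82.0, 81.2 and 78.2 with TiO2. It rose by 0.42 ± 0.02 (limma adjusted p = 1.34e-05) and 0.20 ± 0.02 (adjusted p = 3.74e-04), with no overlap among groups. IGF2BP2 fell with BPQD, from 10.9, 10.4 and 11.1 to 7.92, 7.78 and 7.28 FPKM (-0.45 ± 0.05, limma adjusted p = 2.34e-04), while the TiO2 values of 11.2, 11 and 10.1 overlap the untreated ones (-0.01 ± 0.05, adjusted p = 0.939). IGF2BP3 rose by 0.34 ± 0.03 with BPQD (limma adjusted p = 1.87e-04) and 0.18 ± 0.03 with TiO2 (adjusted p = 0.00430), and FXR1 by 0.28 ± 0.04 (adjusted p = 7.87e-04) and 0.24 ± 0.04 (adjusted p = 0.00218). FXR2 changed by -0.17 ± 0.03 with each (limma adjusted p = 0.00573 and 0.00617). Among writers VIRMA rose by 0.26 ± 0.05 (limma adjusted p = 0.00356) and ZC3H13 by 0.20 ± 0.03 (adjusted p = 9.66e-04) with BPQD, and RBM15 did not pass (0.44 ± 0.19, adjusted p = 0.10) except without TiO2 replicate 2 (adjusted p = 0.00934).

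Among the genes with a called 3' UTR peak, the 5 largest rises and 5 largest falls of input RNA per material included those that follow. With BPQD the homeobox gene HOXC8 went from 2.72, 2.34 and 2.30 to 7.27, 7.46 and 7.57 FPKM (1.29 ± 0.05, limma adjusted p = 5.67e-06), and its peak, which also overlaps HOXC6 (7.33 FPKM), had 0.51 (p = 5.37e-08) in the authors' deposited table. PTGS1, the cyclooxygenase-1 gene, went from 10.6, 11 and 10.4 to 3.97, 4.19 and 4.10 FPKM (-1.20 ± 0.03, limma adjusted p = 1.22e-06), and its peaks had -0.26 and -0.53 in the authors' deposited table. With TiO2 the lysosomal protease gene CTSL went from 80.3, 80.1 and 80.7 to 164, 167 and 167 FPKM (1.04 ± 0.02, limma adjusted p = 8.91e-08) with a peak at -0.15 (p = 1.41e-05) in the authors' deposited table. RND3, a small GTPase gene, rose by 1.27 ± 0.06 (limma adjusted p = 1.04e-05) with a peak at 0.35 (p = 0.000191) in the authors' deposited table. ID1 and ID3, inhibitors of basic helix-loop-helix factors, fell with TiO2 by 1.03 and by 0.90 on the log2 scale (limma adjusted p = 2.19e-06 and 8.91e-08), and their peaks had -0.07 (p = 0.0145) and -0.12 (p = 3.16e-05) in the authors' deposited table. SLC12A3, a sodium-chloride cotransporter gene, fell from 49.3 ± 0.593 to 20.7 ± 0.398 FPKM (SD, n = 3) with TiO2 (-1.21 ± 0.02, limma adjusted p = 8.91e-08). It carried a higher peak (0.20, p = 2.51e-07), which also overlaps the pseudogene RPS24P17 (26.6 FPKM), and a lower one (-0.17, p = 0.000355) in the authors' deposited table.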

How the data were processed

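Input and m6A immunoprecipitation libraries of cells labelled A549 were analysed from the tables the authors deposited. Per the submitters' processing notes HISAT2 and StringTie 1.3.0 were used, and the notes list a mouse build, while the files hold human genes. No source used here names the peak caller, the annotation tool or the test behind the deposited p-value, the log10 FDR (a score here) and the log2 fold change. The authors' FPKM values per gene and input library were used as deposited. The 12 FPKM columns of the peak tables were not used.

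Input FPKM was tested with limma 3.58.1 (R 4.3.3) on log2(FPKM + 1), so that folds of low genes are understated, over all 9 input libraries, for genes averaging 1 FPKM or more, with Benjamini-Hochberg adjustment over 12224 genes and a threshold of 0.05. On simulated data, changes of log2 size 1 were recovered in 80% of cases for BPQD and 90% for TiO2, and changes of 0.5 in 70% and 80%. Genes without a change were called 15 and 6 times. Smaller changes were not simulated, while called genes with a 3' UTR peak had median absolute log2 changes of 0.26 for BPQD and 0.24 for TiO2. Genes were named by rank of the authors' p in each table, by presence in both tables, by 16 gene lists, by input change, by rows per gene and by width. The members, the lists and these rules were chosen with earlier results of these data known. Peak sequences were not analysed here beyond miRNA genes. Some named genes are not reported here.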

Additional observations from a re-analysis of the deposited data

How the results depend on the processing

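Calls were recounted with stricter thresholds, width and expression limits, 1 row per gene, other scales, pseudocounts and filters, and with each library left out. Under the authors' FDR under 0.05 the called TiO2 peaks went from 4290 to 2833 and the lower ones from 1692 to 1018, and at p under 0.01 the lower ones to 1097. With a mean of at least 5 FPKM required, 637 genes with a 3' UTR peak fell with BPQD and 594 with TiO2, from fewer genes tested. Without rows wider than 3000 bases the median width was 480 bases for BPQD and 509 for TiO2. The other counts stayed within 1.5 times of the values given. Replicate numbers did not pair the libraries (correlations of same-numbered libraries from -0.0830 to 0.0733). With a replicate block 1711 genes were called for BPQD (772 higher, 939 lower) and 1348 for TiO2 (499 higher, 849 lower). Of the named genes called, 61 of 77 for BPQD and 51 of 66 for TiO2 passed under every alternative, and none reversed. The planned search for sequence motifs was not run. Read depth is unknown and limits what a missing call shows.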

Other observations

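Among 3' UTR rows that name no protein-coding gene, 78 of the BPQD table and 56 of the TiO2 table named a lncRNA, with 46.2% and 42.9% called higher, beside 43.3% and 43.0% of all 3' UTR rows. Rows named for a transcribed pseudogene were called higher in 10 and lower in 2 of 19 for BPQD, and higher in 16 and lower in 0 of 22 for TiO2, of which 6 are SCAND2P rows that overlap WDR73, at 3.71 FPKM against 0.996 for SCAND2P. Rows named for a snoRNA were called lower in 4 of 7 for BPQD and 5 of 6 for TiO2, beside 28.0% of all 3' UTR rows in each table. The gene with the most rows was MBP, the myelin basic protein gene, with 9 for BPQD at an input level of 0.745 FPKM. In the authors' deposited table its peaks ran from -2.44 (p = 0.0107) to 5.77 (p = 0.000417).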
